A study of Homo sapiens
Mus musculus and Homo sapiens with 21 samples.

Results

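The human transcripts of 10 genes that mark or control the change between epithelial and mesenchymal cell states were followed in lung adenocarcinoma cells grown in the brain, under the skin and on plastic. The genes were chosen by name, with earlier results of these data known. All 10 were found among the 34058 human genes of the deposited table. They are CDH1, CDH2 and CTNNB1 of the adherens junction, EPCAM of the epithelial surface, and the transcriptional repressors ZEB1, SNAI1 and SNAI2. The others are the splicing regulator ESRP1, and VIM and S100A4, which are read as mesenchymal products. CDH1, the E-cadherin gene, was the member that differed most between growth sites. Its mean level was 67.6 in brain metastases, 12.7 in subcutaneous tumours and 0.901 in monolayer culture, while its repressor ZEB1 stood at 16.7, 8.85 and 13.3 in the same order, and ESRP1 was at or near 0 everywhere.

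The cells were H2030-BrM3, a single brain-tropic line derived from the lung adenocarcinoma line H2030, and every group carried them or their label. Brain metastases came from athymic nu/nu mice injected into the heart at 5 to 6 weeks of age and were taken from the forebrain (3 libraries) and the hindbrain (3 libraries). Subcutaneous tumours came from mice of the same strain and age injected under the skin with growth-factor-reduced Matrigel (4 libraries). Both kinds of tumour were dissected together with the stroma around them and frozen, so each library held human and mouse RNA, which the authors counted in separate tables. Monolayer cultures were passaged every 3 to 4 days and left alone before harvest (3 libraries). Tumour-free forebrain and hindbrain of the same mouse strain (4 libraries each) served here as a measure of mouse RNA read as human. Athymic mice lack mature T cells. The labels do not say which libraries came from the same animal or culture, so the p-values below measure the spread between these samples, which may be technical in part, and a single cell line stands behind all of them.

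E-cadherin and N-cadherin, the product of CDH2, bind the same protein on neighbouring cells through their outer domains and hold beta-catenin, the product of CTNNB1, on their tails. In the epithelial-mesenchymal transition, SNAI1, SNAI2 and ZEB1 bind E-box sequences and repress CDH1 and other epithelial genes, ESRP1 is lost, N-cadherin replaces E-cadherin, and vimentin, the intermediate filament protein made from VIM, accumulates. In carcinoma the reverse change is often discussed for metastases that have begun to grow out, and neurons and glia carry much N-cadherin of their own.

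The E-box letters read by these repressors can be shown in the promoters of the genes they act on. The motif searched was CACCTG on either strand (CAGGTG when read along the gene), in a window from 250 bases before to 50 bases after the start site of the MANE Select transcript (the reference transcript agreed by the main annotation groups) in GENCODE 44 on GRCh38. Of 19061 protein-coding promoters searched, 3839 (20.14%) held the motif at least once and 109 (0.5718%) held it 3 times or more. CDH1, EPCAM and ZEB1 itself each had 3 matches. ESRP1 had 2, SNAI1 and S100A4 had 1 each, and CDH2, VIM, SNAI2 and CTNNB1 had none. Counted from the start site, the CDH1 matches began at positions -80, -29 and 22. In EPCAM they began at -223, -187 and -28. The windows say which letters are present and nothing about binding in these cells.

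**Figure D1:**
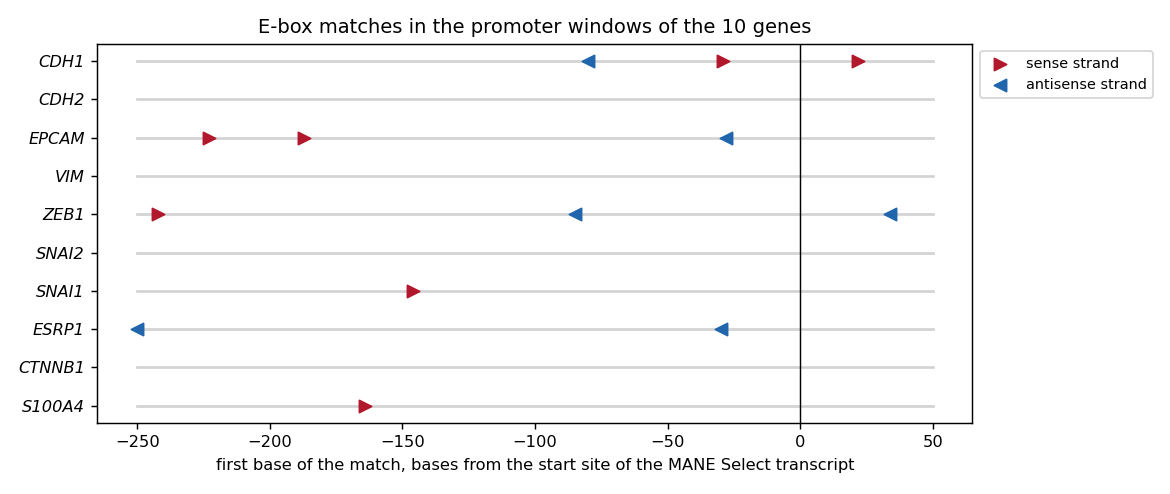
Position of each CACCTG match (red, sense strand; blue, antisense strand) in bases from the start site, one row per gene, over windows of 300 bases. CDH1, EPCAM and ZEB1 hold 3 matches each, and the rows of CDH2, VIM, SNAI2 and CTNNB1 are empty.

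Levels are given as RPKM (reads per kilobase of transcript, scaled for depth) rescaled so that the human genes of each library sum to 1000000. The deposited values rest on the median length of a gene's annotated transcripts, so levels are compared between genes only with that in mind, and where it matters the level per length of the MANE Select transcript is added. Whole reads were recovered from the steps in the RPKM. Metastasis libraries held 3579943 to 6897922 human reads, subcutaneous tumours 27253661 to 48153453, and monolayers 29580138 to 49599610. The tumour-free brains held only 3325 to 5753 reads assigned to human genes, and at their rate 0.307% of the reads counted as human in metastases would come from mouse RNA. Across the 10 genes the tumour-free brains held 8 human reads in all, 3 of them in forebrain replicate 3. KRT8 and KRT18, simple epithelial keratins, averaged 1147 ± 165 and 607 ± 72.3 in metastases, whereas the lung markers NKX2-1 and SFTPC and the keratin KRT19 were at or near 0 in every group. In bulk tissue, fewer cells making a transcript and less of it per cell cannot be told apart.

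**Figure D2:**
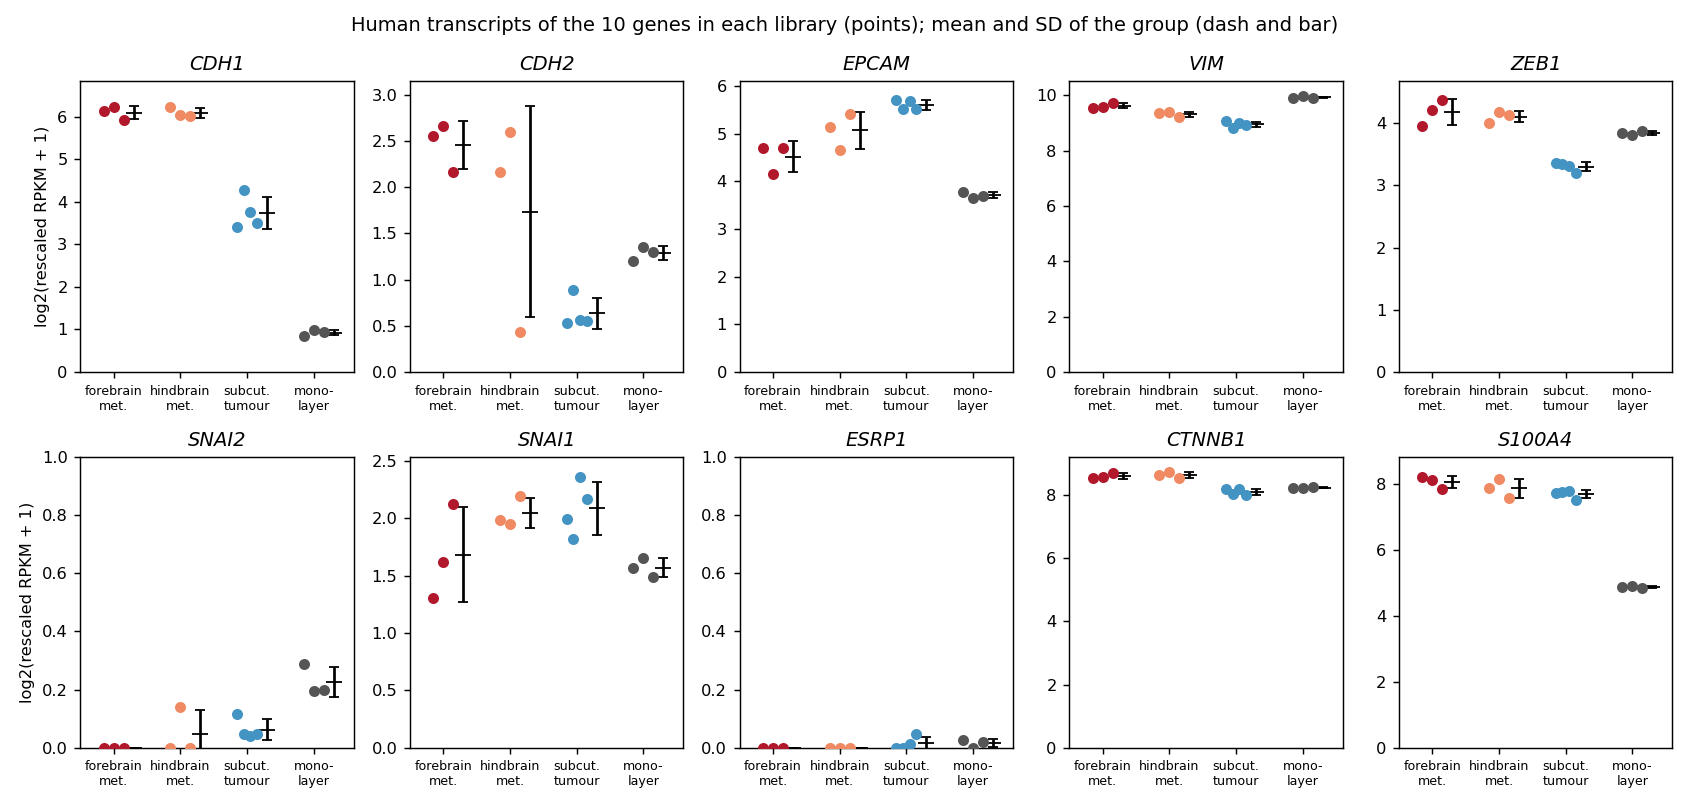
Human transcripts of the 10 genes as log2(rescaled RPKM + 1), one panel per gene with its own axis from 0, points for libraries and a dash with a bar for the group mean and SD of the log2 values (forebrain and hindbrain metastases n = 3 each, subcutaneous tumours n = 4, monolayer n = 3). CDH1 steps down from the brain to the subcutaneous site to the monolayer, EPCAM is highest under the skin, VIM is highest in the monolayer, and SNAI2 and ESRP1 lie near 0.

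Differences were tested with limma on log2(rescaled RPKM + 1) in a single fit of the 13 libraries with cancer cells, with Benjamini-Hochberg adjustment over the 14557 human genes that reached a level of 1 in at least 3 libraries. A gene is called at an adjusted p under 0.05. Of the 10 genes, 8 passed that filter, and SNAI2 and ESRP1 did not. Fold changes are on the scale of level + 1 and understate the change of low genes. The comparisons below share libraries with each other.

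CDH1 was far higher in metastases than anywhere else. Its level was 69.1, 73.8 and 60.1 in forebrain metastases, 74.4, 64.6 and 63.6 in hindbrain metastases, 9.61, 18.3, 12.6 and 10.4 in subcutaneous tumours, and 0.807, 0.976 and 0.920 in monolayers. All 6 metastases lay above all 4 subcutaneous tumours, and these above all 3 monolayers. Against subcutaneous tumours the log2 change in metastases was 2.36 (SE 0.14, a 5.12-fold difference, limma adjusted p = 1.23e-08), and against the monolayer it was 5.17 (SE 0.15, 36.0-fold, limma adjusted p = 1.52e-11). Subcutaneous tumours were themselves 7.03-fold above the monolayer (log2 change 2.81, SE 0.16, limma adjusted p = 8.74e-09). The monolayer values rest on 67 to 99 reads a library. CDH1 is at chromosome 16, 68737292 to 68835537, on the plus strand.

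The tumour-free brains held 1 human CDH1 read in all, which scales to 0.0535% of the 4596 CDH1 reads of the metastases. There is no tumour-free skin in the series to give such a rate for the subcutaneous site, where mouse epithelium was present in part of the libraries. Mouse Cdh1 had a level of 44.8, 31.3 and 42.8 in subcutaneous replicates 1, 2 and 4, against 2.00 in replicate 3, and mouse Krt14, a skin keratin, was at 487, 383 and 445 in replicates 1, 2 and 4 and at 0 in replicate 3. Human CDH1 in replicate 3, the library with almost no mouse epithelium, was 12.6, within the range of replicates 1, 2 and 4. The part of mouse epithelium in the human CDH1 values of subcutaneous tumours was not tested.

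CDH2 was higher in metastases than in subcutaneous tumours, on few reads. Its level was 4.86, 5.30 and 3.48 in forebrain metastases, 3.47, 5.06 and 0.355 in hindbrain metastases, 0.449, 0.846, 0.479 and 0.464 in subcutaneous tumours, and 1.30, 1.55 and 1.46 in monolayers. The last of the hindbrain libraries, replicate 3, fell below every subcutaneous tumour, so the sides overlap, and the other 5 metastases lay above all other libraries. That library held 1 CDH2 read where 12.3 are expected at the rate of the other 5 metastases, which held 10 to 19 each.

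The log2 change of CDH2 in metastases against subcutaneous tumours was 1.46 (SE 0.31, 2.75-fold, limma adjusted p = 0.00121), and it was 1.79 (SE 0.14) without hindbrain replicate 3. Against the monolayer CDH2 was not called (log2 change 0.81, 95% interval 0.09 to 1.53, limma adjusted p = 0.0656). Without hindbrain replicate 3 it was called at an adjusted p of 6.25e-05 with a log2 change of 1.13. Subcutaneous tumours had 0.559 ± 0.191 (SD, n = 4) against 1.44 ± 0.125 (SD, n = 3) in the monolayer, with no overlap, yet the difference was not called (log2 change -0.65, 95% interval -1.43 to 0.13, limma adjusted p = 0.149). It was called without that hindbrain library, which enters the shared spread (adjusted p = 0.00383), and with only these 2 groups fitted (0.000485). By reads, CDH2 made up 3.02 per 1000000 human reads in metastases (exact Poisson 95% interval 2.40 to 3.75), 0.420 in subcutaneous tumours (0.321 to 0.539) and 1.12 in the monolayer (0.935 to 1.33), which covers counting error only.

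Mouse Cdh2 was abundant in the brain tissue around the metastases. Human reads were 0.190% ± 0.107 of the human and mouse reads of this gene in metastases (SD, n = 6), against 6.51% over all genes and 68.0% for CDH1. No human CDH2 read was found in 8 tumour-free brain libraries. The summed human-table level of 4 neuronal markers was 6.25 to 19.4 in metastases. It was 0.994 to 1.28 in subcutaneous tumours and 1.07 to 1.27 in the monolayer, where CDH2 levels did not overlap. GAP43 and SNAP25 carried most of the sum in metastases, with means of 5.11 and 4.197. RBFOX3 averaged 0.881 in metastases, 0.449 in subcutaneous tumours and 0.493 in the monolayer. SYT1 averaged 0.2703, 0.0869 and 0.3369 in that order. The part of neuronal RNA in the CDH2 values was not tested. At the limit of 3 reads that a count of 0 in tumour-free brain allows, mouse RNA could supply 7.15 of the 82 CDH2 reads of the metastases, or 8.73%.

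**Figure D3:**
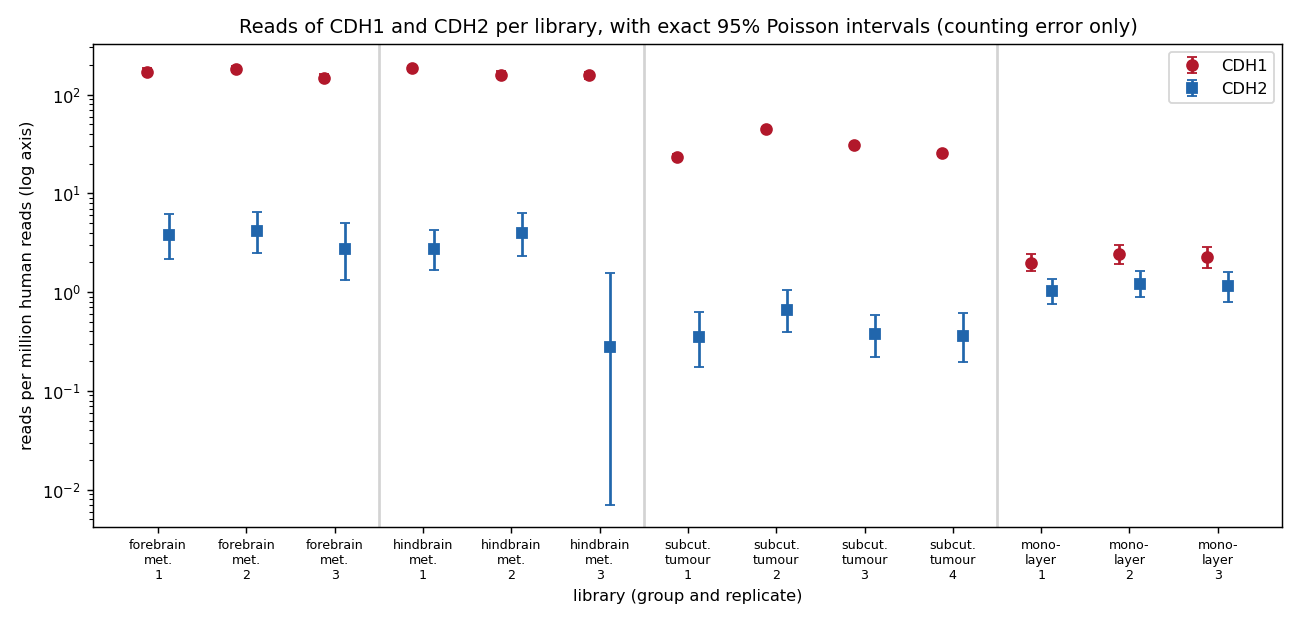
Reads of CDH1 (red circles) and CDH2 (blue squares) per 1000000 human reads in each of the 13 libraries on a log axis, with exact Poisson 95% intervals that cover counting error only. CDH1 stands far above CDH2 in the tumours of both sites and closest to it in the 3 monolayers, and hindbrain metastasis replicate 3 holds a single CDH2 read.

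A cadherin switch in the textbook sense sets 1 cadherin against the other, and within a library their ratio does not depend on scaling. CDH1 over CDH2 by rescaled RPKM was 14.2, 13.9 and 17.3 in forebrain metastases, 21.4, 12.8 and 179 in hindbrain metastases, 21.4, 21.7, 26.4 and 22.4 in subcutaneous tumours, and 0.620, 0.631 and 0.629 in monolayers. All tumours lay above all monolayers, and apart from hindbrain replicate 3, with its single CDH2 read, metastases spanned 12.8 to 21.4, next to 21.4 to 26.4 in subcutaneous tumours. Whether the monolayer favours CDH2 depends on the length used: the authors' length for CDH2 is 740 bases against 4016 for the MANE Select transcript, and per MANE Select length the monolayer ratio was 1.62 to 1.65, that of subcutaneous tumours 55.9 to 69.0 and that of metastases 33.3 to 468. CDH1 and CDH2 were both called higher in metastases than in subcutaneous tumours.

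Among 21 cadherin genes, the most abundant was neither of these. CDH11, a cadherin of mesenchymal and bone-forming cells, ranked 1 in metastases, subcutaneous tumours and monolayers with either length. CDH1 ranked 2 in metastases and in subcutaneous tumours with either length, and in the monolayer it ranked 6 with the authors' length and 4 with the MANE Select length. Per MANE Select length CDH11 had a level of 42.8 ± 11.6 in metastases, 82.0 ± 7.83 in subcutaneous tumours and 23.8 ± 0.560 in the monolayer (SD), against 32.6 ± 2.80, 6.13 ± 1.90 and 0.434 ± 0.0417 for CDH1. CDH11 was 1.97-fold lower in metastases than in subcutaneous tumours (limma adjusted p = 7.46e-08) and 1.74-fold higher than in the monolayer (limma adjusted p = 1.31e-06). Of 5 fibroblast markers in the human table, COL1A1, a collagen chain, had the same order of sites, at 94.6 ± 15.7 in metastases, 183 ± 17.6 in subcutaneous tumours and 21.9 ± 0.719 in the monolayer. It made up most of the list's summed level, which was 80.0 to 123 in metastases, 164 to 206 in subcutaneous tumours and 21.9 to 23.8 in the monolayer. DCN, the decorin gene and a defining fibroblast marker, was at 0 in metastases and subcutaneous tumours, and PDGFRA, another, was at 0.104 ± 0.121 and 0.182 ± 0.0845 there. The part of fibroblast RNA in the levels of CDH11 and of the mesenchymal products below was not tested. CDH4, the retinal cadherin, was 2.16-fold lower in metastases (4.38 ± 1.02) than in the monolayer (10.5 ± 0.234, limma adjusted p = 3.06e-05). Of the cadherins other than CDH1 and CDH2, 6 passed the filter. In metastases 2 of them rose and 2 fell against subcutaneous tumours, and 3 rose and 2 fell against the monolayer. All tested genes had shares of 31.2% higher and 18.8% lower in the first comparison, and 21.9% and 21% in the second.

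CTNNB1 rose in metastases. Its level was 371, 378 and 418 in forebrain metastases, 400, 428 and 372 in hindbrain metastases, 295, 259, 290 and 257 in subcutaneous tumours, and 300, 301 and 305 in monolayers. All 6 metastases exceeded all other libraries, by 1.43-fold against subcutaneous tumours (log2 change 0.52, SE 0.06, limma adjusted p = 4.27e-06) and 1.30-fold against the monolayer (log2 change 0.38, SE 0.06, limma adjusted p = 0.000174). Between subcutaneous tumours and the monolayer CTNNB1 was not called (log2 change -0.14, 95% interval -0.28 to 0.01, limma adjusted p = 0.1).

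The other parts of the adherens junction moved in both directions. Of 14 tested genes 5 rose and 5 fell in metastases against subcutaneous tumours, where 31.2% of all tested genes rose and 18.8% fell. The median log2 change of the 14 was -0.11 beside 0.05 over all tested genes. PKP4, an armadillo protein related to p120-catenin, was 3.16-fold higher in metastases (188 ± 25.8 against 58.5 ± 4.67, limma adjusted p = 7.70e-11). VCL, which encodes vinculin, and CTNND1, p120-catenin itself, were 1.35-fold and 1.29-fold higher. NECTIN2, a nectin adhesion receptor, was 1.53-fold lower. JUP, plakoglobin, which can take the place of beta-catenin on a cadherin tail, was 3.45-fold higher in metastases than in the monolayer (238 ± 15.1 against 68.1 ± 1.00, limma adjusted p = 7.95e-11) and 3.94-fold higher in subcutaneous tumours (272 ± 19.4) than in the monolayer (limma adjusted p = 9.26e-11). CTNNAL1, a relative of alpha-catenin, and LIMA1, an actin-binding protein, were lower than in the monolayer at both sites, by 1.81-fold to 2.32-fold.

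Of 10 tested genes with a part in beta-catenin turnover, 8 rose and none fell in metastases against subcutaneous tumours. There 31.2% of all tested genes were called higher and 18.8% lower. The median log2 change of the 10 was 0.20 beside 0.05 over all genes. AXIN1 rose 1.40-fold, GSK3B 1.33-fold and APC 1.23-fold, all parts of the destruction complex, which is only a portion of the list. The count depended on scaling: with libraries scaled to nuclear genes 3 of the 10 were called higher, where 3478 of 14930 genes were. Against the monolayer 3 rose and 3 fell in metastases, where 21.9% of all tested genes rose and 21% fell.

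EPCAM had another order of sites than CDH1. It was 24.9, 16.7 and 25.1 in forebrain metastases, 34.0, 24.3 and 41.5 in hindbrain metastases, 50.8, 44.9, 50.7 and 44.4 in subcutaneous tumours, and 12.7, 11.5 and 12 in monolayers. The 3 sites did not overlap, and subcutaneous tumours were highest. Metastases were 1.76-fold lower than subcutaneous tumours (log2 change -0.81, SE 0.13, limma adjusted p = 0.000188) and 2.12-fold higher than the monolayer (log2 change 1.08, SE 0.15, limma adjusted p = 4.30e-05). Subcutaneous tumours were 3.72-fold above the monolayer (limma adjusted p = 3.31e-07). The ratio of CDH1 to EPCAM was 1.53 to 4.42 in metastases, 0.189 to 0.408 in subcutaneous tumours and 0.0633 to 0.0846 in the monolayer, with no overlap between sites. Mouse RNA accounts for 0.270% of the EPCAM reads of the metastases at the rate of tumour-free brain. In subcutaneous replicate 3, with 1 mouse Epcam read, human EPCAM was 50.7. The part of mouse epithelium in the human EPCAM values of subcutaneous tumours was not tested.

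Of 9 tested genes of the epithelial surface 3 rose and 5 fell in metastases against subcutaneous tumours (median log2 change -0.32). In metastases against the monolayer 6 rose and 1 fell (0.55), and in subcutaneous tumours against the monolayer 7 rose and 1 fell (0.91). Among all tested genes 31.2% were called higher and 18.8% lower in the first comparison. These shares were 21.9% and 21% in the second, and 21.5% and 30.9% in the third. The medians of all tested genes were 0.05, 0.01 and -0.05. CD24, a mucin-like surface protein, had the same order of sites as CDH1, at 11.1 ± 2.78 in metastases, 2.76 ± 0.786 in subcutaneous tumours and 0.964 ± 0.0989 in the monolayer. It was 3.19-fold higher in metastases than in subcutaneous tumours (limma adjusted p = 1.24e-06). SDC1, the epithelial syndecan, was 1.34-fold higher, and LAMB3, a laminin chain of epithelial basement membrane, was 2.10-fold lower in metastases than in subcutaneous tumours. MUC1, a membrane mucin, was 3.42-fold higher in metastases and 5.30-fold higher in subcutaneous tumours than in the monolayer.

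Genes of other junctions moved in both directions. Of 8 desmosomal genes 1 rose and 3 fell in metastases against subcutaneous tumours, and 5 rose and 1 fell against the monolayer. The shares of all tested genes were 31.2% higher and 18.8% lower against subcutaneous tumours, and 21.9% and 21% against the monolayer. DSP, desmoplakin, was 144 ± 15.7 in metastases, 141 ± 20.7 in subcutaneous tumours and 78.3 ± 1.81 in the monolayer. Of 15 tight junction and polarity genes 4 rose and 4 fell in metastases against subcutaneous tumours, with CLDN4, a sealing claudin, 2.19-fold higher, TJP1, the scaffold ZO-1, 2.06-fold higher, and LSR, the tricellular junction receptor, 1.64-fold lower. CLDN1 was lower than in the monolayer at both sites, by 2.90-fold in metastases and 4.31-fold in subcutaneous tumours.

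ZEB1 rose together with CDH1 in metastases. Its level was 14.5, 17.5 and 19.7 in forebrain metastases, 15, 17.1 and 16.5 in hindbrain metastases, 9.23, 9.09, 8.86 and 8.21 in subcutaneous tumours, and 13.3, 13 and 13.6 in monolayers. Metastases lay above all subcutaneous tumours, and the lowest metastasis lay just above the highest monolayer. The log2 change in metastases was 0.84 (SE 0.08, 1.79-fold, limma adjusted p = 1.63e-06) against subcutaneous tumours and 0.31 (SE 0.09, 1.24-fold, limma adjusted p = 0.0130) against the monolayer. Subcutaneous tumours were 1.45-fold below the monolayer (limma adjusted p = 0.000324). The difference from the monolayer was lost with hindbrain metastases alone (adjusted p = 0.0553) and without monolayer replicate 2 (0.0588). Mouse RNA accounts for 0.746% of the ZEB1 reads of the metastases at the rate of tumour-free brain, where mouse Zeb1 is abundant.

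SNAI1 differed little between tumour sites. It was 1.47, 2.08 and 3.36 in forebrain metastases, 2.97, 2.88 and 3.58 in hindbrain metastases, 2.97, 2.54, 4.14 and 3.51 in subcutaneous tumours, and 1.96, 2.14 and 1.81 in monolayers. Metastases overlapped with the other groups on both sides. Neither the difference from subcutaneous tumours (log2 change -0.22, 95% interval -0.55 to 0.11, limma adjusted p = 0.251) nor that from the monolayer (0.29, 95% interval -0.07 to 0.66, limma adjusted p = 0.180) was called. The first was called without forebrain replicate 3 (adjusted p = 0.0484). Subcutaneous tumours were 1.43-fold above the monolayer (log2 change 0.52, SE 0.18, limma adjusted p = 0.0282), a call lost under 7 alternatives, among them leaving out subcutaneous replicate 3 or 4 or any 1 of the monolayers (adjusted p 0.0517 to 0.0910).

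SNAI2 was close to silent. A single read was found over the 6 metastases, against 14 reads over 4 subcutaneous tumours and 47 over 3 monolayers. Its rate was 0.0369 per 1000000 human reads in metastases (exact Poisson 95% interval 0.000933 to 0.205), 0.0964 in subcutaneous tumours (0.0527 to 0.162) and 0.408 in the monolayer (0.300 to 0.543). At the monolayer's rate 11.1 reads would be expected in the metastases, and at that of subcutaneous tumours 2.61, so the monolayer stood above the metastases while the tumour sites could not be told apart at this depth. Each monolayer library, at 0.145 to 0.219, exceeded every tumour library, at 0 to 0.102.

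ESRP1 and the factors that go with it were examined next. ESRP1, an RNA-binding protein that fixes epithelial exon choice, had 0 reads over the 6 metastases, 4 reads over the subcutaneous tumours and 3 over the monolayers. A count of 0 allows up to 0.111 reads per 1000000 human reads in metastases, above the rates of 0.0275 in subcutaneous tumours and 0.0261 in the monolayer, so no difference was detectable at this depth. Of 8 other tested epithelial transcription and splicing factors 2 rose and 2 fell in metastases against subcutaneous tumours. Among all tested genes 31.2% rose and 18.8% fell there. KLF4 rose 2.14-fold against subcutaneous tumours and 2.68-fold against the monolayer (15.9 ± 2.10, 7.09 ± 2.44 and 5.26 ± 0.133 in the order metastases, subcutaneous tumours, monolayer). RBM47, another splicing regulator of epithelia, rose 2.34-fold against the monolayer in metastases. KLF5 was 1.65-fold lower in metastases than in subcutaneous tumours.

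Of 10 other tested transcription factors of the transition 4 rose and 2 fell in metastases against subcutaneous tumours. The shares of all tested genes were 31.2% higher and 18.8% lower. TCF4, a basic helix-loop-helix E-protein, was at 38.6 ± 12.3 in metastases, 7.79 ± 1.25 in subcutaneous tumours and 8.55 ± 0.456 in the monolayer, 4.35-fold above subcutaneous tumours (limma adjusted p = 1.53e-09). Mouse RNA accounts for 4.26% of its reads in metastases at the rate of tumour-free brain. HMGA2 was 1.71-fold higher and SOX4 1.38-fold lower in metastases than in subcutaneous tumours. TWIST1, a repressor of CDH1 in other carcinomas, was 1.36-fold higher in metastases (41.2 ± 3.18) than in the monolayer (30.0 ± 0.817, limma adjusted p = 0.000162), and SOX9 was 2.41-fold lower.

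VIM was abundant at every site. Its level was 746, 768 and 842 in forebrain metastases, 656, 665 and 595 in hindbrain metastases, 533, 452, 510 and 481 in subcutaneous tumours, and 958, 993 and 952 in monolayers. The 3 sites did not overlap. Metastases were 1.43-fold above subcutaneous tumours (log2 change 0.52, SE 0.05, limma adjusted p = 3.22e-06) and 1.37-fold below the monolayer (log2 change -0.45, SE 0.06, limma adjusted p = 3.18e-05), and subcutaneous tumours were 1.96-fold below the monolayer (limma adjusted p = 3.62e-08). VIM over CDH1 was 8.82 to 14 in metastases, 24.7 to 55.5 in subcutaneous tumours and 1017 to 1188 in the monolayer.

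S100A4, a calcium-binding protein linked to cell motility, set the tumours apart from the monolayer. It was 295, 277 and 230 in forebrain metastases, 236, 285 and 192 in hindbrain metastases, 210, 219, 222 and 184 in subcutaneous tumours, and 28.2, 29.3 and 27.9 in monolayers. Metastases were 8.50-fold above the monolayer (log2 change 3.09, SE 0.11, limma adjusted p = 6.53e-11), and subcutaneous tumours were 7.09-fold above it (log2 change 2.83, SE 0.11, limma adjusted p = 2.90e-10). The tumour sites overlapped. Their difference was called (log2 change 0.26, SE 0.10, 1.20-fold higher in metastases, limma adjusted p = 0.0365) and lost under 14 alternatives, among them scaling to nuclear genes (adjusted p = 0.166) and leaving out forebrain replicate 1 or 2, hindbrain replicate 1 or 2, or subcutaneous replicate 1 or 4. Human reads were 97.4% ± 1.1 of the human and mouse reads of this gene in metastases and 96.9% ± 1.09 in subcutaneous tumours. Of 6 other tested S100 genes 3 rose and none fell in metastases against the monolayer, where 21.9% of all genes rose and 21% fell. S100A10 rose by 1.63-fold (1351 ± 71.3 against 828.9 ± 11.7), S100A13 by 1.92-fold and S100A16 by 2.03-fold.

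Of 14 other mesenchymal products tested, 9 rose and 4 fell in metastases against subcutaneous tumours (median log2 change 0.60). In metastases against the monolayer 5 rose and 6 fell (-0.03, with a sign that turns between scalings). In subcutaneous tumours against the monolayer 4 rose and 8 fell (-0.88). Shares over all tested genes were 31.2% higher and 18.8% lower in the first comparison. They were 21.9% and 21% in the second, and 21.5% and 30.9% in the third. The medians of all tested genes were 0.05, 0.01 and -0.05. NT5E, the surface enzyme CD73, was 155 ± 35.1 in metastases, 43.6 ± 6.54 in subcutaneous tumours and 306 ± 0.662 in the monolayer. TPM1, a tropomyosin, was 2.65-fold higher in metastases than in subcutaneous tumours, FSTL1 2.24-fold and TGFBI 2.13-fold. TNC, the matrix protein tenascin, rose at both sites, to 797 ± 129 in metastases and 541 ± 113 in subcutaneous tumours, against 189 ± 5.68 in the monolayer. CD44, the hyaluronan receptor, fell to 76.8 ± 19.0 in metastases and 99.6 ± 10.6 in subcutaneous tumours, against 306 ± 9.55 in the monolayer.

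**Figure D4:**
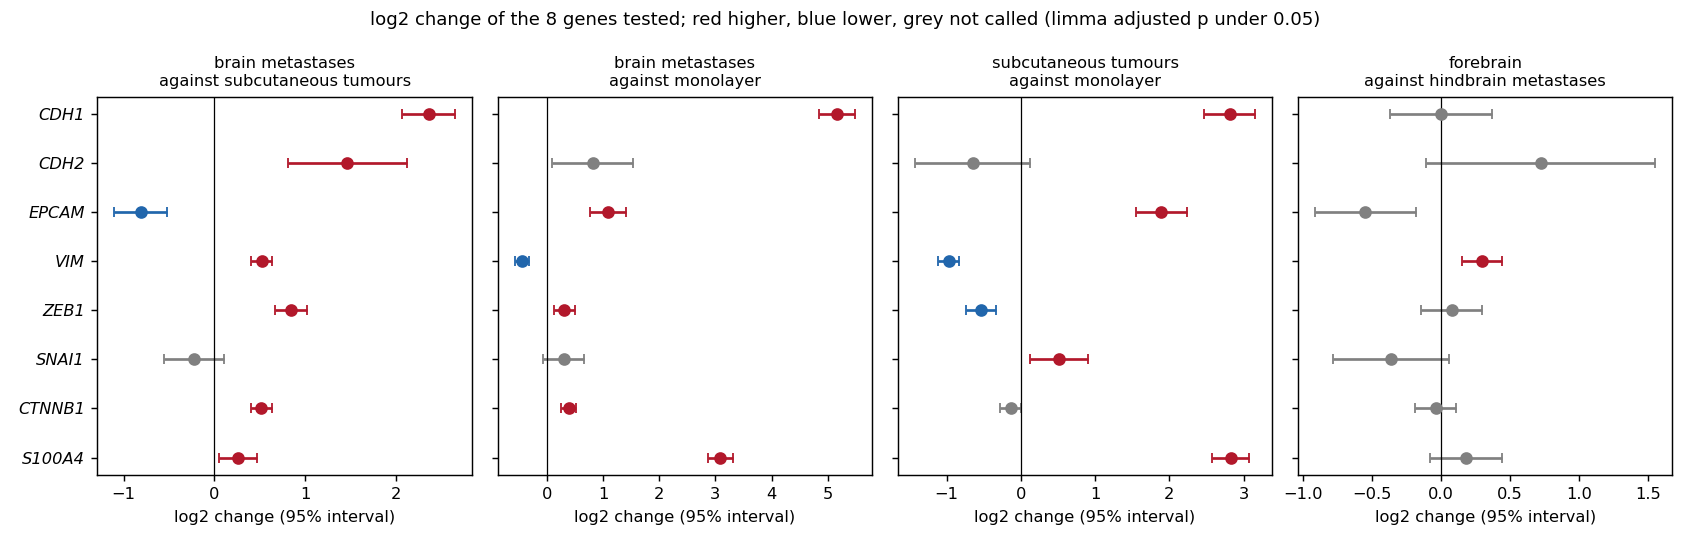
log2 change with its 95% interval for the 8 tested genes in each of the 4 comparisons, on axes that differ between panels (red, called higher; blue, called lower; grey, not called; limma, adjusted p under 0.05). CDH1 has the widest change against the monolayer, at 5.17, and EPCAM is the only member called lower in metastases than in subcutaneous tumours.

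Over the 8 tested members, 6 rose and 1 fell in metastases against subcutaneous tumours, where 50% of all tested genes were called, 31.2% higher and 18.8% lower. Under scaling to nuclear genes the genome-wide calls were 3478 higher and 3733 lower, against 4537 and 2739 in the main fit. The members' median log2 change was 0.52 beside 0.05 over all genes. In metastases against the monolayer 5 members rose and 1 fell, where 42.9% of genes were called, 21.9% higher and 21% lower, and the medians were 0.60 and 0.01. In subcutaneous tumours against the monolayer 4 rose and 2 fell, where 52.4% were called, 21.5% higher and 30.9% lower, and the medians were 0.19 and -0.05. Scaling to nuclear genes gave 4158 higher and 3296 lower calls there, against 3136 and 4499, and moved the median of all genes to 0.06. The sides did not overlap for 5, 6 and 8 of the 8 members in these comparisons, where 31.7%, 38.6% and 67.8% of all tested genes did not. The members and lists were chosen with earlier results of these data known, so their counts are given as a description.

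**Figure D5:**
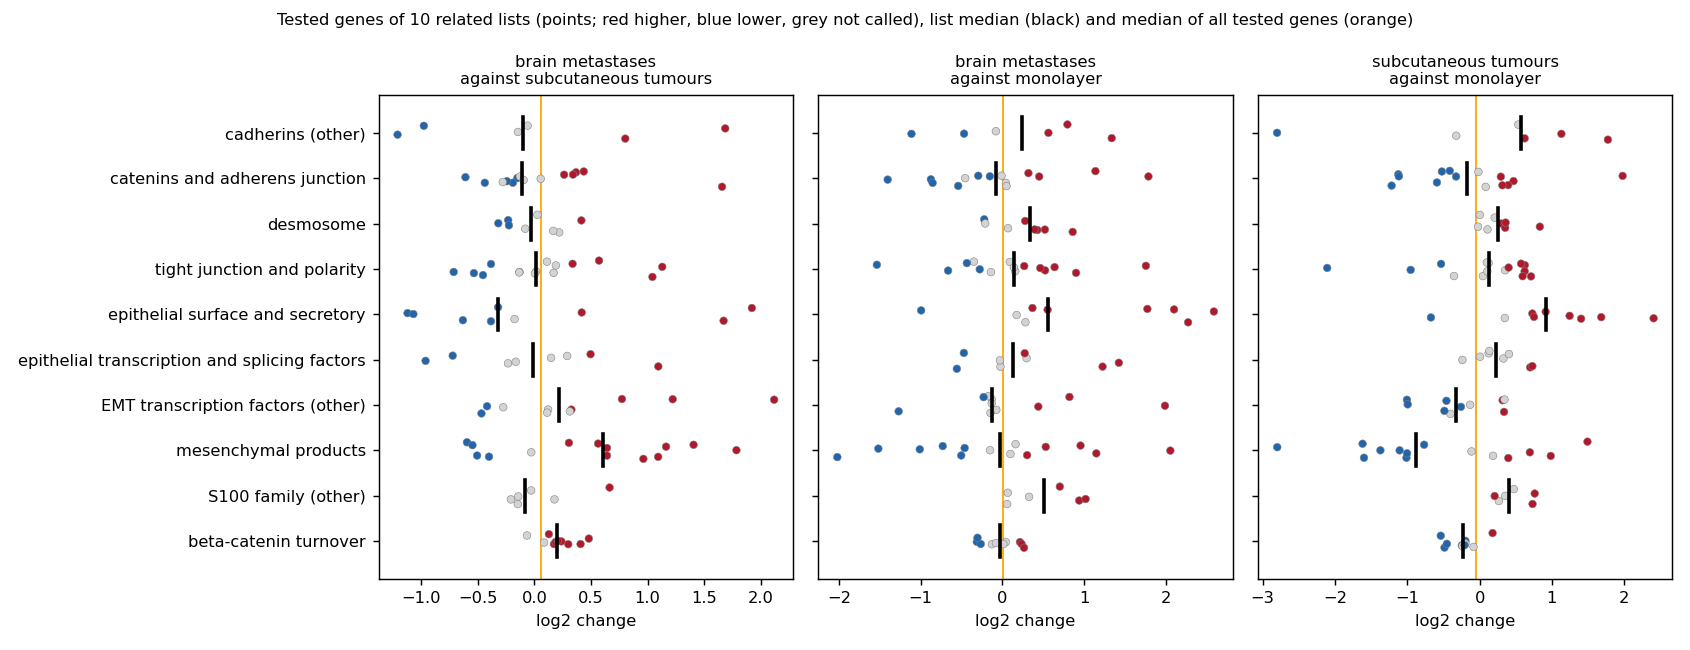
log2 changes of the tested genes of 10 related lists in 3 comparisons, 1 point per gene (red, called higher; blue, called lower; grey, not called), with the list median in black and the median of all tested genes in orange; horizontal axes differ between panels. The median of the mesenchymal products is 0.60 in metastases against subcutaneous tumours and -0.88 in subcutaneous tumours against the monolayer.

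Most members were not called between forebrain and hindbrain metastases. CDH1 averaged 67.7 ± 6.99 in forebrain metastases and 67.5 ± 5.97 in hindbrain metastases (SD, n = 3 each), and the 95% interval of the log2 difference ran from -0.37 to 0.37. VIM was the only member called, at 785 ± 50.0 in forebrain metastases and 639 ± 38.1 in hindbrain metastases (log2 change 0.30, SE 0.07, 1.23-fold, limma adjusted p = 0.0331), where 3.3% of genes were called, 1.85% higher and 1.45% lower, and 15.6% did not overlap. Median-of-ratios scaling turned that split to 216 higher and 255 lower, against 270 and 211. In a check on simulated reads this comparison made more false calls than its threshold allows. The simulation set the same spread beyond counting error for every gene and library, which the real libraries need not share. With forebrain and hindbrain metastases fitted alone, VIM was not called (adjusted p = 0.179), and in the larger fit it was not called without forebrain replicate 2 or 3, hindbrain replicate 3 or any 1 monolayer (0.0549 to 0.0711). EPCAM averaged 22.2 ± 4.82 in forebrain metastases and 33.3 ± 8.65 in hindbrain metastases and was not called (log2 change -0.55, 95% interval -0.91 to -0.19, limma adjusted p = 0.0894), and was called without hindbrain replicate 2 (0.0212).

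Among the list genes, CDH11 was 1.64-fold lower in forebrain metastases (384 ± 47.7) than in hindbrain metastases (627 ± 17.95, limma adjusted p = 0.000825, and 0.00745 with these 2 groups fitted alone). FN1, fibronectin, was 2.16-fold higher in forebrain metastases (93.7 ± 20.3) than in hindbrain metastases (42.3 ± 1.38, limma adjusted p = 0.00592, and 0.00742 alone), and TCF4 was 1.77-fold higher (49.4 ± 2.60 against 27.7 ± 4.34, limma adjusted p = 0.00420, and 0.0268 alone). The FN1 call was lost with library weights (adjusted p = 0.187) and with voom (0.139), and the TCF4 call with library weights (0.0654). Calls for PKP4, F11R, CD44, ITGA5, TPM1 and USP9X were lost when these groups were fitted alone.

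The genes whose levels ran most closely with CDH1 over the 13 libraries, by Pearson correlation of log2 values among 10704 genes, included SRSF8 (r = 0.994), NOVA1 (0.993), KCNK1 (0.990) and KRT8 (0.988). NOVA1, a splicing regulator of neurons, was 52.1 ± 3.94 in metastases, 23.6 ± 2.92 in subcutaneous tumours and 9.01 ± 0.554 in the monolayer. For CDH2 they were TRIM24 (0.939), TAF8 (0.937), ENC1 (0.925), NR3C1 (0.925) and KIFAP3 (0.918), and for S100A4 they were CHST11 (0.994), SPARCL1 (0.993), SNED1 (0.988), PDE3A (0.988) and ZNF326 (0.987). The libraries fall into separate groups by site, so these values mostly restate the order of the group means and are given as a description.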

How the data were processed

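RNA-seq values of 21 libraries were used as the authors deposited them, as RPKM per gene in separate human and mouse tables. Builds are hg38 and mm10 per the submitters' processing notes; the sources used here name no aligner or counter. Every column was matched to a sample by name (0 columns were left unmapped). Recovered lengths equal the median annotated transcript length for 99.81% of 3088 genes with the same version in GENCODE 44, and 100% of human genes with reads came out as whole reads within 0.02 of a read. Replicate libraries differed by more than counting error (chi-square per degree of freedom 2.55 to 21.6 over 15 same-group comparisons), so none was counted as a repeat.

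RPKM was rescaled to a sum of 1000000 and tested as log2(value + 1) with limma 3.58.1 (trend and robust, two-sided) in R 4.3.3, on genes at 1 or more in at least 3 of 13 libraries. The contrast for brain metastases weights forebrain and hindbrain equally. Other steps used Python 3.11.15, pandas 2.3.3 and SciPy 1.17.1. The fit was tested on simulated data. Poisson intervals and the limit of 3 reads for a count of 0 cover counting error only, at 95%.

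The members and lists were chosen with earlier results of these data known. Named were the 10 members, up to 4 called genes per list and comparison with the largest change, a mean of at least 5 and no overlap, and for CDH1, CDH2 and S100A4 the 5 most correlated genes; subcutaneous and tumour-free values of mouse genes and the cadherin ranking were added after values were seen. The list genes CDH12, CDH20, PKP1, DSG3, GRHL2, BGN and S100B were not analysed here, and a few items that the naming rule picks are not reported here. No pair of groups had every same-numbered correlation above 0.1, so no number was treated as a shared animal. This rule cannot show that same-numbered forebrain and hindbrain metastases came from different animals. Alternatives covered scaling, pseudocount, filter, spread model, recovered reads with voom, expected mouse RNA, region, a replicate block and leaving out each library.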

Additional observations from a re-analysis of the deposited data

Results flagged for a closer look

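Of 21 sets of 4 to 10 libraries checked, 5 held a library far from the rest. Chance flags about 1 in 20 sets, but not where most libraries hold 0 reads, since a single read is then flagged. The sets also share libraries and reads, so the 5 are not set against that rate. CDH2 in hindbrain metastasis replicate 3 was 0.355, below the other 5 metastases at 3.47 to 5.30, on 1 read. The log2 ratio of CDH1 to CDH2 in that library was 7.485, against 3.67 to 4.42 in the other 5 metastases, and rests on the same read. CDH2 in subcutaneous replicate 2 was 0.8459, above the other 3 tumours at 0.449 to 0.479, on 18 reads. SNAI2 in hindbrain metastasis replicate 2 was 0.1024, from the single read among metastases. SNAI2 in subcutaneous replicate 1 was 0.08425, from 6 reads, above 0.0274 to 0.0342 in the other 3 tumours. The cause of these values was not tested.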

How the results depend on the processing

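Of 896 alternative values of the tested members, 833 kept their direction and their side of the threshold, as did 3009 of 3104 values of named list genes. For metastases against subcutaneous tumours the count of members called was 6 to 8 when 1 library was left out, against the monolayer 5 to 7, and for subcutaneous tumours against the monolayer 5 to 7. For forebrain against hindbrain metastases it was 0 in place of 1 with no filter, without trend or robust spread, with library weights, with voom on recovered reads and with only the groups compared, and 0 to 2 when 1 library was left out. All tested genes called there numbered 481 in the main fit, 39 with only the groups compared, 58 with library weights, 100 with voom, 204 with no filter, 295 with the replicate block, and 263 to 735 when 1 library was left out. The cause was not tested.

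Directions turned for differences near 0. CTNNB1 in subcutaneous tumours against the monolayer was 0.0353 with quantile normalization. CDH1 in forebrain against hindbrain metastases was -0.00217 as deposited, -0.0181 with median-of-ratios scaling, -0.00604 with nuclear genes, -0.00388 with library weights, -0.0098 with voom, and -0.0163, -0.0627, -0.0284 and -0.0392 in 4 fits without 1 library. Leaving out 1 library gave -0.0627 to 0.08367 for CDH1, -0.0219 to 0.1893 for ZEB1 and -0.09203 to 0.01003 for CTNNB1 in that comparison. The mean log2 ratio of CDH1 to CDH2 per MANE Select length was 5.901 in subcutaneous tumours in place of 4.515. In monolayers it was 0.7124 in place of -0.6739. The MANE Select length exceeds the authors' length by a larger factor for CDH2 (4016 against 740 bases) than for CDH1 (4811 against 2317.5). With the authors' lengths, leaving out 1 library gave 3.967 to 4.729 in metastases. It gave 4.446 to 4.547 in subcutaneous tumours and -0.6792 to -0.6659 in monolayers. The 8 human reads of the members in tumour-free brain were 5 to 8 when 1 library was left out. The log2 change of CDH2 against subcutaneous tumours ran from 0.62 to 2.63 over its alternatives, and its call against the monolayer was gained in 6 (adjusted p 6.25e-05 to 0.0289). Depth limits CDH2, SNAI1, SNAI2 and ESRP1 in metastases.

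Numbers shared by libraries of different groups were not taken to pair them: deviations of same-numbered libraries correlated at -0.283 to 0.109. Between forebrain and hindbrain metastases they correlated at 0.0441 to 0.0662, under the 0.1 set for pairing but above differently numbered libraries of these groups at -0.0555 to 0.0107. With the replicate block, S100A4 in metastases against subcutaneous tumours (adjusted p = 0.0886) and VIM in forebrain against hindbrain metastases (0.0692) lost their calls, EPCAM in the last comparison gained one (0.0486), and no other member's call changed.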

Other observations

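The mouse counterparts of these genes, read from the same libraries, showed another order. Mouse Vim was 109 ± 29.2 in forebrain with metastases against 30.8 ± 3.84 in tumour-free forebrain, and 182 ± 53.2 in hindbrain with metastases against 75.1 ± 16.1 in tumour-free hindbrain (SD, n = 3 and n = 4). Mouse S100a4 was 1.25 ± 0.400 in forebrain with metastases and 0.239 ± 0.269 in tumour-free forebrain. In hindbrain it was 0.614 ± 0.244 with metastases and 0.266 ± 0.144 tumour-free, and these libraries overlapped. Mouse Cdh2 was 42.1 ± 1.47 in forebrain with metastases and 42.3 ± 2.25 in tumour-free forebrain. In the stroma of subcutaneous tumours mouse Vim was 1868 ± 200, Snai2 12.6 ± 3.06 and Snai1 26.5 ± 9.69, whereas Cdh2 was 1.82 ± 1.04. These values were not tested.

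Human CDH5, the endothelial cadherin, was listed at 1.77 ± 1.19 in metastases on 105 reads, 0.481 ± 0.0973 in subcutaneous tumours and 0.0212 ± 0.0281 in the monolayer, with 0 reads in tumour-free brain. Human-table GAP43, a neuronal growth protein, was 5.11 ± 2.13 in metastases on 253 reads against 0.00833 ± 0.00748 in the monolayer. The part of mouse RNA or of the cancer cells in these values was not tested.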
